A study of Homo sapiens with 6 samples.

Results

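Interferon response and antiviral genes were examined after lentiviral transduction of HEK-293T cells, which derive from human embryonic kidney and carry SV40 large T antigen. The set holds 42 genes fixed by name: the interferon receptors, their kinases and transcription factors, sensors of foreign RNA and DNA, and genes that interferon induces. A probe belonged to the set when its gene symbol in the platform annotation was on this list. This gave 66 probes of 41 genes, out of 47231 probes and 20046 genes with a named probe on the array, and STAT2 was not analysed here. The cells received a RUNX1-overexpressing lentivirus or a control virus with multiple cloning sites (MCS) in place of the gene, at 10 MOI (infectious particles per cell), were selected with 1 µg/ml puromycin and were harvested after 7 days. RNA of each group was hybridized to 3 Illumina HT-12 v4 arrays, and a figure legend of the study calls its array values biological triplicates, although the labels do not name separate cultures, so that p-values measure the spread between these arrays. Both groups carried a virus and were selected, and arrays of untransduced cells were not analysed here, so the comparison asks what RUNX1 adds and not what transduction does to antiviral genes.

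Interferons are secreted proteins by which infected cells warn their neighbours. Type I interferons bind a receptor made of IFNAR1 and IFNAR2, whose kinases JAK1 and TYK2 activate a complex that contains STAT2 and IRF9 and binds the interferon-stimulated response element (ISRE), while interferon gamma acts through IFNGR1 and IFNGR2 and the gamma-activated site (GAS), at which IRF1 is a known target. The genes behind these elements block viral entry, degrade or mask viral RNA, and load viral peptides for presentation to T cells. Cells can also sense the RNA and DNA of lentiviruses, which makes these genes of interest in a transduced line.

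The arrays did not separate by transduction. The first principal component of all genes tested held 66.7% of the variance and placed RUNX1 replicates 1 and 2 with MCS replicate 1 (scores of -21.1, -21.3 and -25.6) against RUNX1 replicate 3 with MCS replicates 2 and 3 (26.6, 15.0 and 26.4). Correlations of arrays within groups (0.970 to 0.994) and between groups (0.969 to 0.993) covered the same range, and between 18096 and 19321 probes were detected per array. The 3 probes of RUNX1 itself gave 18 signals, of which 0 were detected on the RUNX1 arrays and 1 on an MCS array. The sources used here do not say whether these probes lie in the transduced sequence, so RUNX1 and MCS below are the groups as labelled, and every direction rests on those labels. Of 6 genes known from HEK lines, KRT8, KRT18, VIM, NEFM and NEFL were detected on all 6 arrays and PAX2 on none. Of 13 probes of 7 blood cell markers, 1 CD14 probe was detected, on all 6 arrays, while the remaining probes, a further one of CD14 among them, were detected on none.

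In all, 30 genes were expressed well enough to be tested, that is, had a probe with a detection p-value under 0.05 on at least 3 of the 6 arrays. Of these 30 genes, 26 were detected on all 6 arrays, and IRF7 was detected on 5, OAS1 and IFI44 on 4 and IFIH1 on 3. Of the upper part of the pathway, 4 of 4 receptors, 2 of 2 kinases and 5 of 5 measured transcription factors of the set were tested. Among the further pathway genes outside the set, described below, fewer were. There, 5 of 12 measured sensors or adaptors and 4 of 9 measured kinases, factors or feedback genes were tested. JAK2, DHX58 and MB21D1 among them were detected on no array. The effectors of the set were less complete, with 3 of 3 IFITM genes, 7 of 8 other induced genes and 4 of 5 sensors and RNA-binding proteins. Tested too were 2 of 4 IFIT genes, 2 of 4 antigen presentation genes, 1 of 4 OAS genes and 0 of 2 MX genes.

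**Figure D1:**
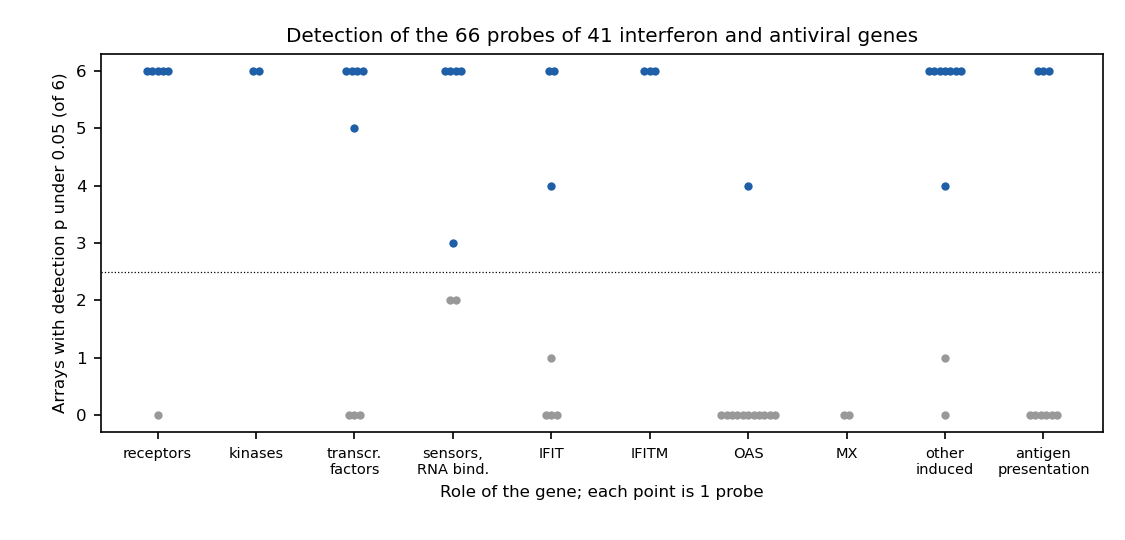
Number of the 6 arrays (vertical axis) on which each of the 66 probes was detected at a p under 0.05, by the role of its gene (horizontal axis). Each point is 1 probe, and points above the dotted line, at 3 or more arrays, could be tested; all receptor genes have such a probe, whereas the MX probes lie at 0.

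The 11 genes that were not tested are among the best known interferon-induced genes. MX1 and MX2, GTPases that trap incoming viral particles, were detected on none of the 6 arrays. The same held for OAS2 and OAS3, which sense double-stranded RNA and activate RNase L, and for their relative OASL. IFIT2, an RNA-binding inhibitor of viral translation, and the immunoproteasome subunits PSMB8 and PSMB9 were also detected on none. IFIT3, the partner of IFIT1, and BST2 (tetherin), which holds budding virions at the cell surface, were each detected on 1 array, an MCS array in both cases. IFI16, a sensor of foreign DNA, was detected on 2 arrays, both of MCS cells. In all, 4 of the 132 signals of these 22 probes were detected. Intensities of all 132 signals, detected or not, lay between 66.6 and 151.2. Thus the genes were not well above background in either group and no fold change is given for them. In such bulk RNA, fewer expressing cells and less RNA per cell cannot be told apart.

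Promoters of the set were searched for the letters of the interferon elements, and some are shown here because they are what the pathway acts on. RefSeq promoter windows of GRCh38.p14, from 250 bases before to 50 bases after the start, were available for 32 of the 41 genes (46 windows, since 11 genes have several). The ISRE-like letters GAAANNGAA, searched on both strands, occurred in 24 of 46 windows (52.2%), compared with 8.11% of all 35116 windows. By gene, they occurred in 14 of 25 tested genes with a window and in 6 of 7 that were not tested (IFI16, IFIT3, OAS3, MX1, BST2 and PSMB8). The GAS-like letters TTCNNNGAA, which are their own reverse complement, occurred in 11 of 46 windows (23.9%), compared with 7.66% of all windows. Such a match describes the sequence and is not a measured binding site. IFNAR2, IRF2, IRF3, IRF7, IFIT2, IFITM2, OAS2, OASL and MX2 had no window in the table used. The promoters of IFIT1 (chr10:89392443-89392642, plus strand), IFIT3 (chr10:89327817-89328016, plus strand) and ISG15 (chr1:1013317-1013516, plus strand) are printed from 180 bases before to 20 bases after the start, 5′ to 3′, with the ISRE-like letters in capitals. The 3 genes contrast in detection, IFIT1 and ISG15 having a probe detected on all 6 arrays and IFIT3 having none that passed.
IFIT1: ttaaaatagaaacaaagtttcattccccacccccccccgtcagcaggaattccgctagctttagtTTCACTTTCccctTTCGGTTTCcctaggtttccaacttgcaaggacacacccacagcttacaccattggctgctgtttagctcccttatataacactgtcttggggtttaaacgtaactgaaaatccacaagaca
IFIT3: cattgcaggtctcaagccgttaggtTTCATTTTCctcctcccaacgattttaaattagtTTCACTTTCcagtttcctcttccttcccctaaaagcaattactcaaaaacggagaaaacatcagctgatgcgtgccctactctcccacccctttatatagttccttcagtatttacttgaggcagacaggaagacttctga
ISG15: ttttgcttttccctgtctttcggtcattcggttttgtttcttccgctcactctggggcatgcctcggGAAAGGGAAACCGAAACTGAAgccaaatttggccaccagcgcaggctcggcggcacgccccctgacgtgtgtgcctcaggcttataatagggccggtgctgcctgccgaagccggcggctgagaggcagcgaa
In the printed stretches of IFIT1 and IFIT3 the element lies on the opposite strand, and in ISG15 overlapping matches run together into 1 stretch. IFIT3 has a further window (chr10:89332279-89332578), not printed, with 3 ISRE-like matches.

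None of the 30 tested genes passed the test between RUNX1 and MCS arrays (limma, adjusted p under 0.05 over all genes), compared with 0% of the 11129 genes tested. At an unadjusted p under 0.05 there was 1 gene of the set, IRF1, compared with 2.26% of all genes (251). With the methods' t-test, 0 genes passed after adjustment, and 2 of the set, TYK2 and IRF9, had an unadjusted p under 0.05, compared with 3.23% of all genes (360). The median difference over the 30 genes was 0.096 on the log2 scale, ranging from -0.34 (TRIM25) to 0.40 (IRF1 and IFITM1), and that over all genes was 0.021. Means were higher on RUNX1 arrays for 24 genes (80%) and lower for 6, compared with 55.4% of all genes higher. When arrays were scaled by their medians, the split was 15 (50%) and 15, compared with 28.6% of all genes higher. That scaling put the median of all genes at -0.088. Genes of the set above the median of all genes numbered 22 in the main fit and 23 with median scaling. Groups did not overlap for 3 of 30 genes (10%), IRF1, IRF9 and TYK2, compared with 6.56% of all genes. The 95% confidence intervals of 28 of the 30 genes lay within a 2-fold change in either direction, compared with 10278 of all 11129 genes. The exceptions in the set were IFITM1 (-0.25 to 1.05) and TAP1 (-0.50 to 1.16).

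**Figure D2:**
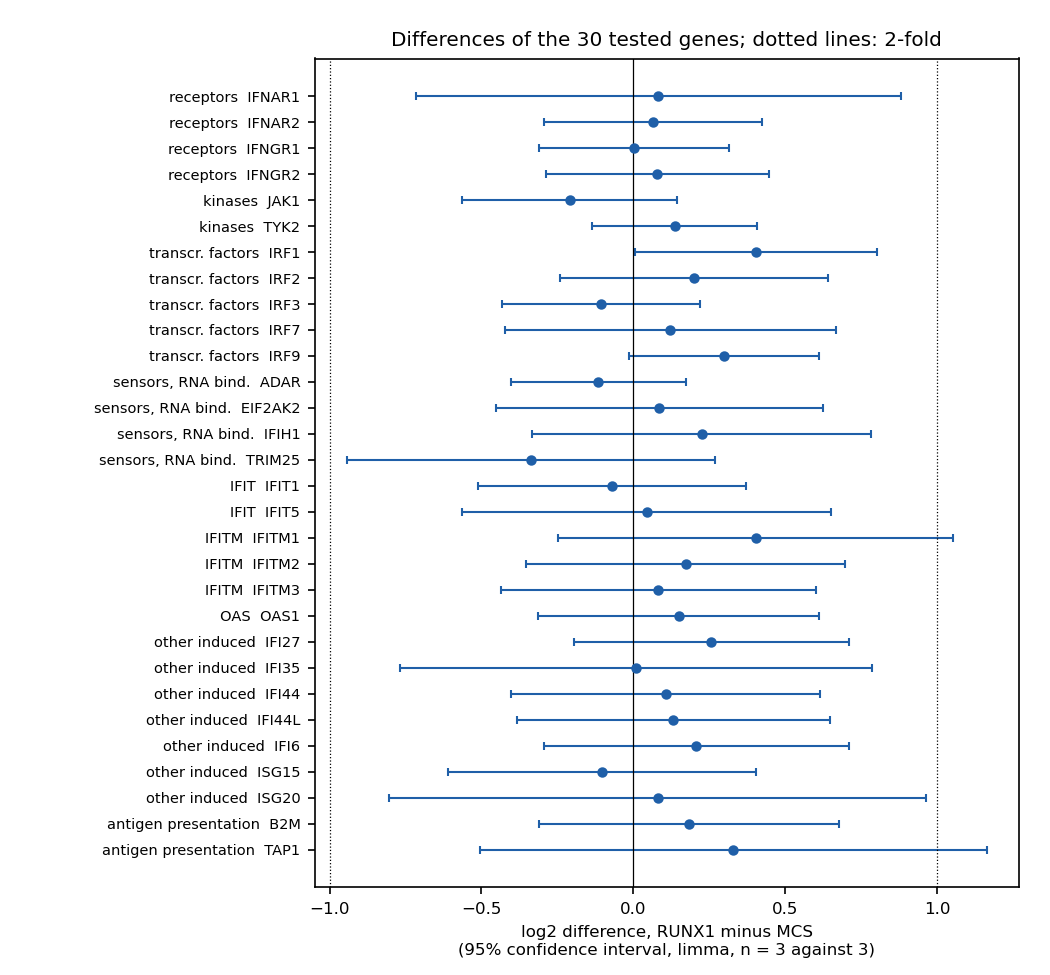
Log2 difference of RUNX1 minus MCS (horizontal axis) with its 95% confidence interval for each of the 30 tested genes, ordered by role, n = 3 arrays per group. The interval of IRF1 alone excludes 0 before adjustment, narrowly, with a lower end of 0.0041. Those of IFITM1 and TAP1 reach past the dotted line of a 2-fold change.

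The receptor genes differed by at most 0.08 in mean between groups. IFNAR1, a chain of the type I receptor, had log2 values of 7.51, 7.60 and 6.62 on RUNX1 arrays 1 to 3 and 7.71, 7.06 and 6.70 on MCS arrays 1 to 3. Its 3 highest arrays were RUNX1 1, RUNX1 2 and MCS 1, and the difference between groups was 0.08 (SE 0.34). IFNAR2, its partner chain, IFNGR1, which binds interferon gamma, and IFNGR2, which carries its signal, differed by 0.07, 0.0019 and 0.08. A further probe of IFNAR2, for another transcript, differed by -0.23 (SE 0.14). Hence the sign for IFNAR2 depended on the probe.

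The kinases overlapped less. TYK2, which is bound to IFNAR1, had values of 10.24, 10.34 and 10.36 on RUNX1 arrays and 10.20, 10.19 and 10.14 on MCS arrays. All RUNX1 values lay above all MCS values, but the difference was only 0.14 (SE 0.12, unadjusted p = 0.275 by limma). JAK1, which serves both receptors, had values of 8.50, 8.30 and 8.10 on RUNX1 arrays and 8.50, 8.64 and 8.39 on MCS arrays. Here RUNX1 replicates 2 and 3 lay below every MCS array and the difference was -0.21 (SE 0.15).

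Among the transcription factors, IRF1 and IRF9 had the smallest p-values of the set. IRF1, an activator of interferon and antigen presentation genes, had values of 7.15, 7.32 and 7.72 on RUNX1 arrays and 6.99, 6.95 and 7.06 on MCS arrays. The groups did not overlap, RUNX1 replicate 3 was the highest, and the mean of 7.40 ± 0.29 (SD, n = 3) compared with 6.997 ± 0.055 (SD, n = 3). The difference of 0.40 (SE 0.17, 95% confidence interval 0.0041 to 0.80) had an unadjusted p of 0.0482 and an adjusted p of 1.00 with limma. Its unadjusted p by limma moved across 0.05 with the processing, from 0.0382 with no detection filter to 0.0609 without background correction. IRF9, the DNA-binding part of the complex with STAT2, had values of 8.22, 8.19 and 8.48 on RUNX1 arrays and 8.06, 7.96 and 7.97 on MCS arrays. Again RUNX1 replicate 3 was the highest and no value overlapped, and the difference was 0.30 (SE 0.13, unadjusted p = 0.0576 by limma). In exact permutation tests over the 20 ways to label 3 of 6 arrays, IRF1, IRF9 and TYK2 each gave a two-sided p of 0.1, the smallest that this design allows.

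The promoters of IRF1 (chr5:132490754-132490953, minus strand) and IRF9 (chr14:24161085-24161284, plus strand) are printed because both hold GAS-like letters, in capitals, and neither window holds ISRE-like ones. They are given from 180 bases before to 20 bases after the RefSeq start on GRCh38.p14.
IRF1: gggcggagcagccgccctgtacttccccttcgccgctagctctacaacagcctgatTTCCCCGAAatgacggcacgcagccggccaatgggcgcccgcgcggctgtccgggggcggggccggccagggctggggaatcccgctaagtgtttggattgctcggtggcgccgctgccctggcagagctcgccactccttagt
IRF9: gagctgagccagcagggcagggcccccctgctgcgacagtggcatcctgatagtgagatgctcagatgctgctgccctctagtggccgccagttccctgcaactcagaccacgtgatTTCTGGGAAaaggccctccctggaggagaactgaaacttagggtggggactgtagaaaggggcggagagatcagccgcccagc
Of the 10 genes with GAS-like letters in a window, 7 were tested, namely IRF1, IRF9, IFITM1, OAS1, IFI27, IFI35 and TAP1. Among these, the windows of OAS1 and IFI35 also held no ISRE-like letters, and these genes differed by 0.15 and 0.0092 between groups. Their promoters are not printed.

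The other factors differed less between groups. IRF2, which competes with IRF1 for its sites, had values of 5.82, 5.48 and 6.18 on RUNX1 arrays and 5.67, 5.58 and 5.64 on MCS arrays. The RUNX1 arrays enclosed the MCS range on both sides, and the difference was 0.20 (SE 0.19). IRF3 and IRF7, the factors that switch on the interferon genes themselves, differed by -0.10 (SE 0.14) and 0.12 (SE 0.23).

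**Figure D3:**
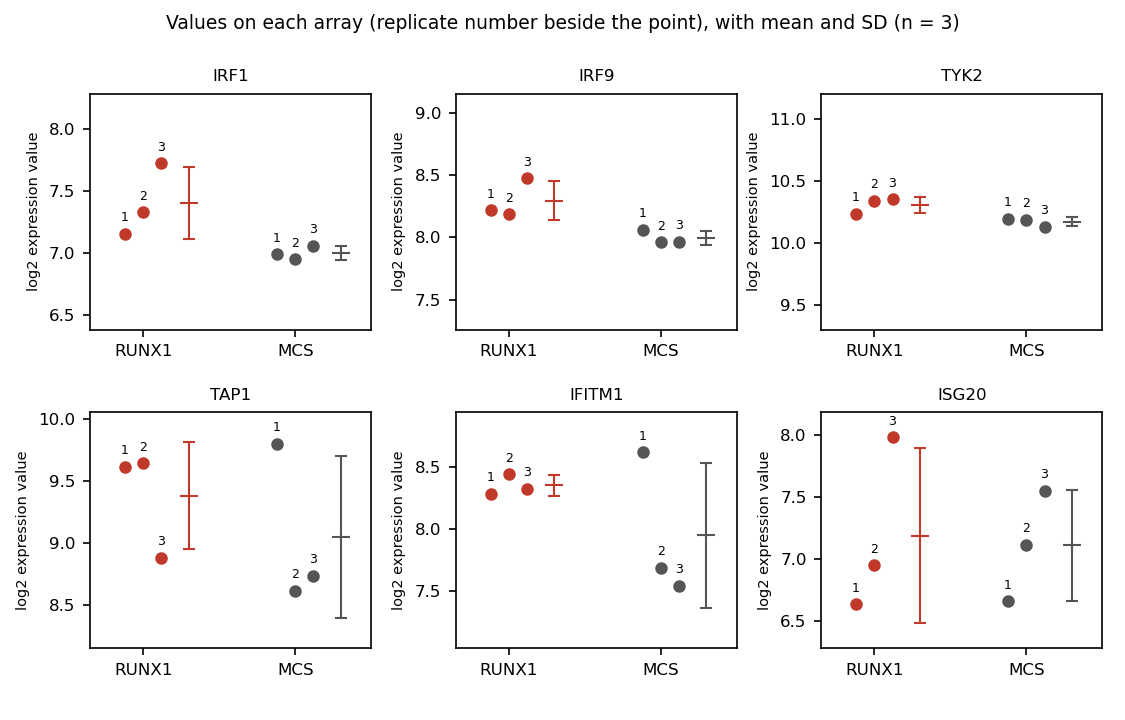
Log2 expression value (vertical axis) of 6 genes on each of 3 RUNX1 and 3 MCS arrays, with the replicate number beside each point and the mean with SD to its right. IRF1, IRF9 and TYK2 show no overlap of the groups, whereas MCS replicate 1 is the highest array for TAP1 and IFITM1 and RUNX1 replicate 3 for ISG20.

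Of the sensors and RNA-binding effectors, 2 had higher and 2 lower means on RUNX1 arrays, none past the test. TRIM25, a ubiquitin ligase needed for RIG-I signalling, had values of 6.94, 7.25 and 6.34 on RUNX1 arrays and 7.47, 7.16 and 6.91 on MCS arrays. The lowest value was that of RUNX1 replicate 3, the groups overlapped, and the difference was -0.34 (SE 0.26). IFIH1 (MDA5), a helicase that senses long double-stranded RNA, had values of 5.74, 5.52 and 5.03 on RUNX1 arrays and 5.57, 5.10 and 4.95 on MCS arrays. It was detected on 3 arrays, and its difference was 0.22 (SE 0.24). EIF2AK2 (PKR), which stops translation on sensing double-stranded RNA, differed by 0.09 (SE 0.23). ADAR, which edits adenosines in double-stranded RNA, differed by -0.12 (SE 0.12) with its brightest probe. A further ADAR probe had values of 9.91, 9.96 and 9.66 on RUNX1 arrays and 10.07, 10.10 and 10.33 on MCS arrays. On that probe the groups did not overlap and the difference was -0.32 (SE 0.15, unadjusted p = 0.0618 by limma over 14578 probes, of which 0 passed).

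The IFITM genes encode membrane proteins that block fusion of enveloped viruses. IFITM1 had values of 8.29, 8.44 and 8.33 on RUNX1 arrays and 8.62, 7.69 and 7.55 on MCS arrays. The RUNX1 arrays lay close together, whereas MCS replicate 1 was the highest of all 6 arrays and MCS replicates 2 and 3 were the lowest. The difference was 0.40 (SE 0.28, unadjusted p = 0.189 by limma). IFITM2 and IFITM3 differed by 0.17 (SE 0.22) and 0.08 (SE 0.22). The IFITM genes are related in sequence, and the share of each signal that comes from a related gene was not tested. Of the IFIT genes, which bind viral RNA lacking host marks, IFIT1 differed by -0.07 (SE 0.19) and IFIT5 by 0.04 (SE 0.26). A further IFIT1 probe, detected on 4 arrays, differed by -0.27 (SE 0.18). OAS1, the one member of its family that could be tested, was detected on 4 arrays and differed by 0.15 (SE 0.20).

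Of the other induced genes, IFI6 and IFI27 encode small proteins of the same family with reported roles in cell survival and antiviral defence. IFI6 had values of 10.06, 10.21 and 9.93 on RUNX1 arrays and 10.30, 9.73 and 9.54 on MCS arrays. The highest was MCS replicate 1 and the lowest were MCS replicates 2 and 3, as for IFITM1, and the difference was 0.21 (SE 0.21). A further IFI6 probe differed by 0.05. IFI27 had values of 6.05, 6.40 and 6.54 on RUNX1 arrays and 5.78, 6.15 and 6.29 on MCS arrays. MCS replicate 1 was the lowest and the groups overlapped, and the difference was 0.26 (SE 0.19).

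ISG20 and IFI35 had wide spreads within groups and almost equal means. ISG20, an exonuclease that degrades single-stranded RNA, had values of 6.64, 6.95 and 7.98 on RUNX1 arrays and 6.66, 7.11 and 7.55 on MCS arrays. RUNX1 replicate 3 and MCS replicate 3 were the highest, and the difference was 0.08 (SE 0.38). IFI35, a partner of the NMI protein, had values of 6.96, 6.62 and 5.80 on RUNX1 arrays and 6.92, 6.16 and 6.26 on MCS arrays. RUNX1 replicate 1 and MCS replicate 1 were the highest, and the difference was 0.0092 (SE 0.33). ISG15, a ubiquitin-like protein that is joined to other proteins during infection, differed by -0.10 (SE 0.22). IFI44 and IFI44L, which are paralogs, differed by 0.11 (SE 0.22) and 0.13 (SE 0.22), the latter with a probe annotated to an expressed sequence tag.

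In the antigen presentation group, TAP1, a subunit of the transporter that carries peptides into the endoplasmic reticulum, had values of 9.61, 9.64 and 8.88 on RUNX1 arrays and 9.80, 8.61 and 8.73 on MCS arrays. RUNX1 replicates 1 and 2 and MCS replicate 1 lay well above the remaining arrays, and the difference was 0.33 (SE 0.35). B2M, the light chain of class I molecules, differed by 0.18 (SE 0.21), and a further B2M probe by 0.02.

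The pattern seen in TAP1 recurred in the set. RUNX1 replicates 1 and 2 and MCS replicate 1 were the 3 highest arrays for 10 of 30 genes (33.3%), compared with 26.3% of all genes. These were IFNAR1, IFNAR2, IFNGR2, IFIH1, EIF2AK2, IFITM2, IFI6, IFI35, TAP1 and B2M. RUNX1 replicate 3 and MCS replicates 2 and 3 were the 3 highest for 2 of 30 (6.67%), ISG15 and ISG20, compared with 18.2% of all genes. Since the first principal component was computed from genes that include these, the counts are a description. Values spanned at least 1 log2 unit over the 6 arrays for 6 of 30 genes (20%), compared with 13.5% of all genes. These were IFNAR1, TRIM25, IFITM1, IFI35, ISG20 and TAP1.

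**Figure D4:**
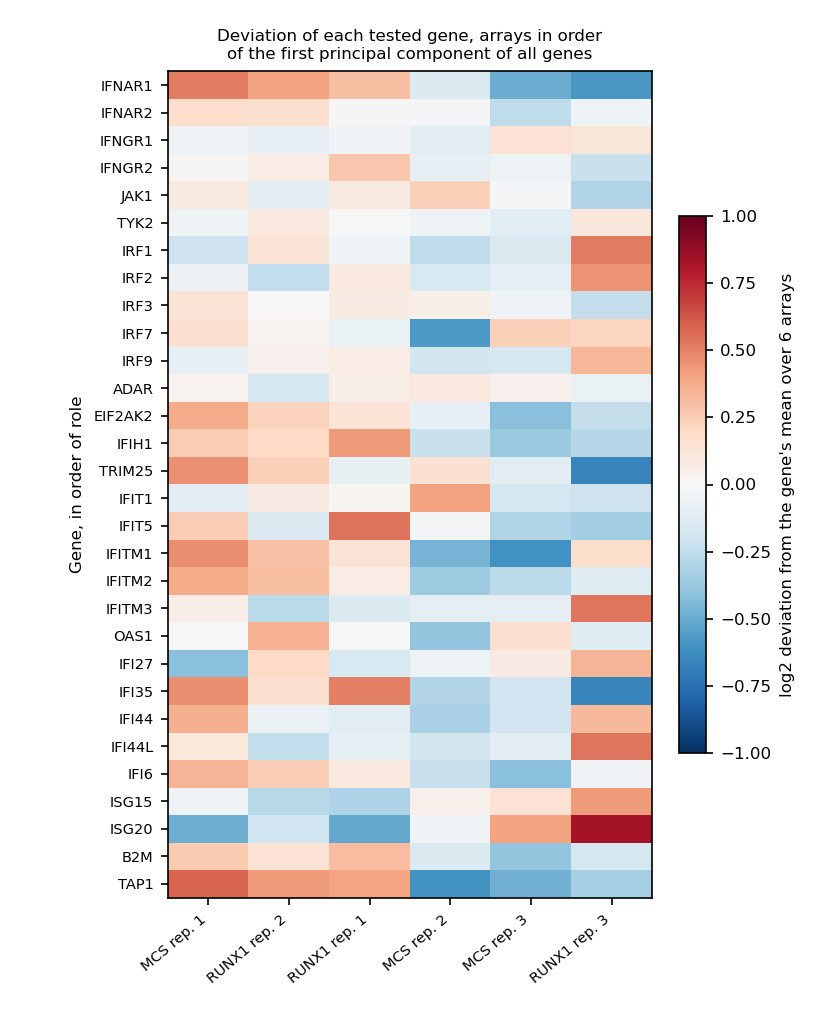
Deviation of each of the 30 tested genes from its mean over the 6 arrays (color, log2 units), with arrays in order of the first principal component (horizontal axis) and genes in order of role (vertical axis). IFNAR1, IFI35 and TAP1 are above their means on the 3 left arrays, which are RUNX1 replicates 1 and 2 and MCS replicate 1, and ISG20 is below its mean there.

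Which genes passed depended on the arrays used. Without both RUNX1 replicate 3 and MCS replicate 1, an alternative chosen after seeing the data that leaves 2 arrays per group, 4 of 30 genes (13.3%) passed the test, compared with 14.2% of all genes (1585). These were IFNAR1 (0.67, adjusted p = 0.0343), IFIH1 (0.61, adjusted p = 0.0338), IFITM1 (0.75, adjusted p = 0.0169) and TAP1 (0.95, adjusted p = 0.00789) by limma. This choice of arrays matches the order of the first principal component, so that the array pattern and the transduction cannot be told apart in it. With arrays weighted by their agreement, 2 of 30 genes (6.67%) passed, compared with 8.06% of all genes (897). They were IFITM1 (0.66, adjusted p = 0.0460) and TAP1 (0.88, adjusted p = 0.0447) by limma. The arrays with the lowest weights were RUNX1 replicate 3 (0.28) and MCS replicate 1 (0.31).

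A further 88 genes of the pathway that are not in the set were read from the same fit. Of these, 83 had a probe and 40 were tested, and 0 passed with limma, with 0 at an unadjusted p under 0.05. Means were higher on RUNX1 arrays for 26 and lower for 14, compared with 55.4% of all genes higher. The median difference was 0.036, ranging from -0.20 to 0.49, with the brightest probe of each gene. Further passing probes of IFI27L2 (0.73) and TICAM1 (0.59) lay above that range, and none lay below it. The brightest TICAM1 probe differed by -0.14, so its sign depended on the probe. The interferon genes themselves were at background, since 1 of 84 signals of 14 probes of 10 ligand genes was detected, that of IFNW1 on a RUNX1 array. The smallest p-values belonged to NMI, XAF1, TRIM21 and TBK1. NMI, a partner of IFI35, had values of 6.21, 6.04 and 6.19 on RUNX1 arrays and 5.55, 5.99 and 5.87 on MCS arrays. Its groups did not overlap, and the difference was 0.35 (SE 0.15, unadjusted p = 0.0588 by limma). XAF1, a proapoptotic protein, TRIM21, an intracellular antibody receptor, and TBK1, the kinase of IRF3, differed by 0.39 (SE 0.20), 0.23 (SE 0.15) and 0.21 (SE 0.15), with overlapping groups.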

How the data were processed

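Total RNA of HEK-293T cells was hybridized to 6 Illumina HT-12 v4 arrays, 3 per transduction as the labels give it. The authors deposited the intensity of each probe, summarised with BeadStudio 3.1 and neither background-corrected nor normalized, and beside it a detection p-value against negative control probes. The authors also deposited processed values, treated here as log2, made with lumi, for which the sources used here give no version or transformation. The intensities were background-corrected from the detection p-values, given an offset of 16, quantile-normalized and log2-transformed by the neqc function (limma 3.58.1, R 4.3.3). Probes with a detection p under 0.05 on 3 or more arrays were kept (14578 with 1 gene symbol), and the brightest per gene gave 11129 genes. RUNX1 was compared with MCS by lmFit and eBayes with no covariate (7.19 degrees of freedom), with Benjamini-Hochberg adjustment over all genes, and the script was tested on simulated data. The number of arrays limits the precision.

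The genes of the set and the other pathway genes were chosen with earlier results of these data known. Values on each array are given for genes among the 10 smallest p-values of the set, with groups that do not overlap, or spanning at least 1 log2 unit. The 4 other pathway genes with the smallest p-values are named, and further probes of the set are given where they passed the filter. Alternatives were other background corrections and offsets, median scaling, a stricter detection filter or none, the authors' own values, the mean of probes, array weights, the methods' t-test, a replicate block, a trend in eBayes, the first principal component as a covariate, and leaving out arrays. Promoter sequences are from RefSeq (GRCh38.p14).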

Additional observations from a re-analysis of the deposited data

How the results depend on the processing

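The number of arrays and the spread between them limit the precision. Of the alternatives, 2 gave any calls. Array weights gave 897 genes in all (8.06%), 2 of 30 of the set (6.67%) and 5 of 40 other pathway genes. Leaving out both RUNX1 replicate 3 and MCS replicate 1, chosen after seeing the data, gave 1585 (14.2%), 4 of 30 (13.3%) and 11 of 40. With array weights IFITM1 (0.66) and TAP1 (0.88) passed. Without both arrays IFNAR1 (0.67), IFIH1 (0.61), IFITM1 (0.75) and TAP1 (0.95) passed. All others, leaving out any single array included, gave 0 calls. The median difference of the set ranged from 0.0049 (median scaling) to 0.20 (without MCS replicate 1). In those fits the median of all genes was -0.088 and 0.035. The labels do not say whether equal replicate numbers pair the arrays. Deviations of arrays with the same number correlated at 0.568, -0.347 and 0.704 for replicates 1 to 3. The replicate block gave 0 calls and a median of 0.096. With it, 523 genes had an unadjusted p under 0.05 by limma, compared with 251 in the main fit. With the first principal component as a covariate, 0 genes passed and 4 of the set had an unadjusted p under 0.05, IRF1 (0.46), IRF9 (0.32), TRIM25 (-0.47) and IFI27 (0.34), compared with 7.38% of all genes (821).

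IRF1 (0.23 to 0.53), IRF9 (0.16 to 0.35), TYK2, JAK1, IFITM1, IFITM2, IFI6, IFI27 and TAP1 kept their sign under every alternative. So did ADAR, B2M and, in every alternative that tested them, IRF2 and IFIH1. IRF3 and TRIM25 kept theirs except without both arrays. The sizes of these differences still depended on single arrays. Leaving out 1 array moved IFITM1 between 0.20 (without MCS replicate 3) and 0.74 (without MCS replicate 1), TAP1 between 0.11 (without MCS replicate 2) and 0.70 (without MCS replicate 1), IFI6 between 0.049 (without MCS replicate 3) and 0.43 (without MCS replicate 1), IFITM2 between 0.037 (without MCS replicate 2) and 0.40 (without MCS replicate 1), IFI27 between 0.11 (without MCS replicate 1) and 0.40 (without RUNX1 replicate 1), TRIM25 between -0.54 (without RUNX1 replicate 2) and -0.087 (without RUNX1 replicate 3), and JAK1 between -0.31 (without RUNX1 replicate 1) and -0.11 (without RUNX1 replicate 3). Signs turned under median scaling for IFNAR1 (-0.070), IFNAR2 (-0.048), IFNGR1 (-0.087), IFNGR2 (-0.0063), EIF2AK2 (-0.052), IFIT5 (-0.031), IFITM3 (-0.047), ISG20 (-0.063) and IFI35 (-0.090). They turned with the mean of probes for IFNAR2 (-0.081), with array weights for IFITM3 (-0.090) and ISG20 (-0.24), and with the principal component for IFNAR1 (-0.12), EIF2AK2 (-0.033), IFIT5 (-0.068) and IFI35 (-0.17). Without both arrays they turned for IFNGR1 (-0.082), IRF3 (0.033), TRIM25 (0.059), IFITM3 (-0.11), ISG20 (-0.54) and IFI44L (-0.018). Values there were 0.43 for EIF2AK2, -0.39 for ISG15 and 0.57 for IFI35. On leaving out single arrays, differences ran from -0.15 to 0.39 for IFNAR1, -0.044 to 0.17 for IFNAR2, -0.059 to 0.075 for IFNGR1, -0.036 to 0.21 for IFNGR2, -0.14 to 0.27 for IRF7, -0.10 to 0.29 for EIF2AK2, -0.18 to 0.11 for IFIT1, -0.22 to 0.23 for IFIT5, -0.16 to 0.24 for IFITM3, -0.012 to 0.27 for OAS1, -0.34 to 0.026 for ISG15, -0.32 to 0.36 for ISG20, -0.24 to 0.34 for IFI35, -0.031 to 0.31 for IFI44 and -0.10 to 0.29 for IFI44L. The cause was not tested.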
